A study of Mus musculus with 2 samples.

Results

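Open chromatin was described at 8 mouse genes that encode zinc finger homeobox proteins and their teashirt relatives: Zfhx2, Zfhx3, Zfhx4, Zeb1, Zeb2, Tshz1, Tshz2 and Tshz3. The rule lists these genes by symbol from family membership and uses no measured value, and all 8 were found among the 21728 protein-coding genes annotated on the autosomes and chromosome X. The data are DNase-seq peak lists of whole mouse embryos of 11 days, strain B6NCrl, with no treatment or genetic change named in the labels. There was 1 group with 2 biological replicates, each from pooled male and female embryos, with separate biosample entries and a shared donor entry. Replicate 1 had 204697 peaks and replicate 2 had 231103, and the read depth of both libraries is unknown. The comparisons are therefore between the 8 genes, between them and all genes, and between both replicates, and they carry no test. Because a whole embryo mixes many tissues, few cells with strongly open chromatin and many cells with weakly open chromatin cannot be told apart, and openness is not expression.

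These proteins combine many zinc fingers with a homeodomain, the DNA-binding fold named after homeotic genes. ZEB factors bind E-boxes, recruit CtBP corepressors and repress epithelial genes such as Cdh1 during the change from epithelium to mesenchyme, and microRNAs of the miR-200 family repress them in turn. ZFHX factors are large proteins of differentiating neurons and muscle, and TSHZ factors are the vertebrate counterparts of Drosophila teashirt, a gene of trunk identity. DNase I cuts DNA that nucleosomes do not cover, so a peak marks a short stretch of exposed DNA such as a promoter or an enhancer.

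The sequences of the best-scoring distal sites of 5 genes are shown first. They are the top of the distal sites counted below and need not be typical of them. Distal means that the midpoint of the peak lay more than 1 kb from the transcription start site (TSS) of every protein-coding gene, and the best-scoring site of a gene is the one whose deposited score ranks best on average over both replicates. They are given on the plus strand of GRCm38, 150 bases each, with matches to the motifs of the motif paragraph in capitals, apart from the core motif of the insulator protein CTCF, which was left in lower case.
Zfhx2 chr14:55079336-55079485: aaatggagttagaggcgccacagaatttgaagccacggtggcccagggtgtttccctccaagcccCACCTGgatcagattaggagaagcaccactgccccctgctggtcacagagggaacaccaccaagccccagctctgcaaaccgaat
Zfhx3 chr8:108481536-108481685: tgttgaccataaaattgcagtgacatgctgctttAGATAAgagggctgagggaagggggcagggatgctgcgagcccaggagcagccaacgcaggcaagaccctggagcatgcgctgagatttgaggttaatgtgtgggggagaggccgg
Zeb2 chr2:45108776-45108925: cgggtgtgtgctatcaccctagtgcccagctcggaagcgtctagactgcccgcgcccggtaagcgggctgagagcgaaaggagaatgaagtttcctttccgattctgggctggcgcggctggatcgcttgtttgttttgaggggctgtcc
Tshz2 chr2:169790776-169790925: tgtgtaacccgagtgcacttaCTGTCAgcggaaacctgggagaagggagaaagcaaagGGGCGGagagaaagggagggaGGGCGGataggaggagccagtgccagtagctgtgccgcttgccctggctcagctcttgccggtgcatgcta
Tshz3 chr7:36696556-36696705: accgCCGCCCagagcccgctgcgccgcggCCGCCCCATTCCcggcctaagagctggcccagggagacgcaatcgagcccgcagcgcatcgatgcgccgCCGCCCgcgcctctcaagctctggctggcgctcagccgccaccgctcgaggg
The Zfhx2 site lies in intron 1 of the gene, 12.9 kb downstream of the 5'-most TSS, and holds the ZEB E-box CAGGTG, read here on the minus strand, and a CTCF core match. The Zfhx3 site is in intron 3 at 539.0 kb and holds a Gata motif. The Zeb2 site is in intron 3, 8.54 kb into the gene, and held 0 of the motifs searched. The Tshz2 site is in intron 1 at 157.8 kb with 3 matches. The Tshz3 site is intergenic, 1.49 kb upstream of the TSS, with 4 matches in a sequence of 76% GC. In replicate 1 it lies in a broader enriched region, a hotspot, that also covers the TSS. The scores of the 5 sites are on a deposited scale from 1 to 150. They were 87 in replicate 1 and 95 in replicate 2 at Zfhx2, and 115 and 128 at Zfhx3. Zeb2 had 101 and 109, Tshz2 had 111 and 119, and Tshz3 had 121 and 131, so all 5 scored higher in replicate 2.

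All 8 genes had open promoters. Each had a peak in both replicates within 500 bp of an annotated TSS, as did 70.3% of all protein-coding genes (15280 of 21728), so the count of 8 of 8 is read against that background. In scores, whole numbers from 1 to 150 whose construction is unknown, the best promoter peak at the 5'-most TSS reached 131 in replicate 1 and 139 in replicate 2 at Zfhx2. Zfhx4 had 114 and 126, Zeb1 had 127 and 129, and Zeb2 had 120 and 132. Tshz1 had 125 and 136, at different peaks, of which the second lies outside its territory, toward the neighbour Zadh2. Tshz2 had 101 and 118, and Tshz3 had 122 in both. Zfhx3, a regulator of neuronal differentiation and of the circadian clock, had the lowest values, 73 and 79. In each replicate the other 7 genes lay among the best-scoring 9.18% of the list or better, whereas Zfhx3 stood at 21.6% in replicate 1 and at 22.2% in replicate 2.

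Zfhx3 scored higher at an internal start site than at its 5'-most one. The 5'-most promoter was poor in CpG dinucleotides, with an observed-to-expected ratio of 0.248, against 0.476 to 0.947 in the other 7 genes. An internal start site of a coding transcript, 772.0 kb downstream, had a peak of 122 in replicate 1 and 127 in replicate 2 on chr8:108714776-108714925. Of the 6 groups of annotated start sites at Zfhx3, 2 had a peak in both replicates and another 2 had one in replicate 2 only, at 669.7 and 760.5 kb.

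Alternative start sites of the other genes were open to different degrees. At Zeb2, which encodes a SMAD-binding factor of neural crest and interneurons, 4 of 6 start-site groups had a peak in both replicates. The 3 groups that begin in the first 6.22 kb scored 120, 99 and 88 in replicate 1 and 132, 99 and 105 in replicate 2. Zeb1 had 2 of 4 groups open, Zfhx2 had 2 of 3, Zfhx4 had 2 of 3, Tshz2 had 2 of 4, and Tshz1 and Tshz3 had all of theirs, 3 and 1. The open groups of Zeb1 begin 1.45 kb apart, and the start site at 139.2 kb had no peak in either replicate. The start sites of Tshz2 at 251.9 and 252.8 kb had none either. The 5'-most TSS of Tshz1 belongs to a transcript without a coding sequence and lies 0.357 kb from the TSS of Zadh2. Its best peak was chr18:84087676-84087825 in replicate 1 and another, chr18:84087936-84088085, in replicate 2. The first covers the Tshz1 TSS, and the second lies past the end of the Tshz1 territory, on the side of Zadh2. Inside the territory the best score in replicate 2 was 135. DNase-seq has no strand, so neither peak can be given to 1 of these genes alone. At the coding start of Tshz1, 1.25 kb further in, the best scores were 94 and 103, again at different peaks.

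Of the 2 antisense genes named after members, 1 had peaks at its start sites. Zeb2os, which runs opposite the 5' part of Zeb2, had a peak at 4 of its 6 transcripts' start sites in replicate 1 and at 3 in replicate 2. Zfhx2os, whose start lies 38455 bp from the TSS of Zfhx2, had 0 in either. DNase-seq has no strand, so a peak between Zeb2 and Zeb2os cannot be given to one of them.

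The median density of distal peaks over the 8 genes was above that of all genes, though not every member stood clearly above it. The territory of a gene, the sequence around its 5'-most TSS up to the midpoint toward the next protein-coding TSS on either side, held 404 distal peaks shared by both replicates over the 8 genes, with 541 in replicate 1 and 619 in replicate 2. The median of the members was 6.78 shared distal peaks per 100 kb, against 4.12 for all 21728 genes. In replicate 1 the medians were 8.56 for the members and 5.29 for all genes, and in replicate 2 they were 10.7 and 6.26. Over both replicates the median of the members was 9.64 ± 1.52 per 100 kb (SD, n = 2). Above the median of all genes stood 7 of the 8 members, where 50% of all genes stand by construction. Zeb2 and Zeb1 did so narrowly, at percentiles 51.8 and 50.9 of all genes, and Zfhx4 stood at 44.3. Pooled over all bases of the territories, the shared density was 6.49 per 100 kb for the members and 4.9 for all genes. Territories of the members were long, with a median of 770.7 kb against 47 kb for all genes, and the 987 genes with territories of at least 500 kb had a median density of 2.79.

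**Figure D1:**
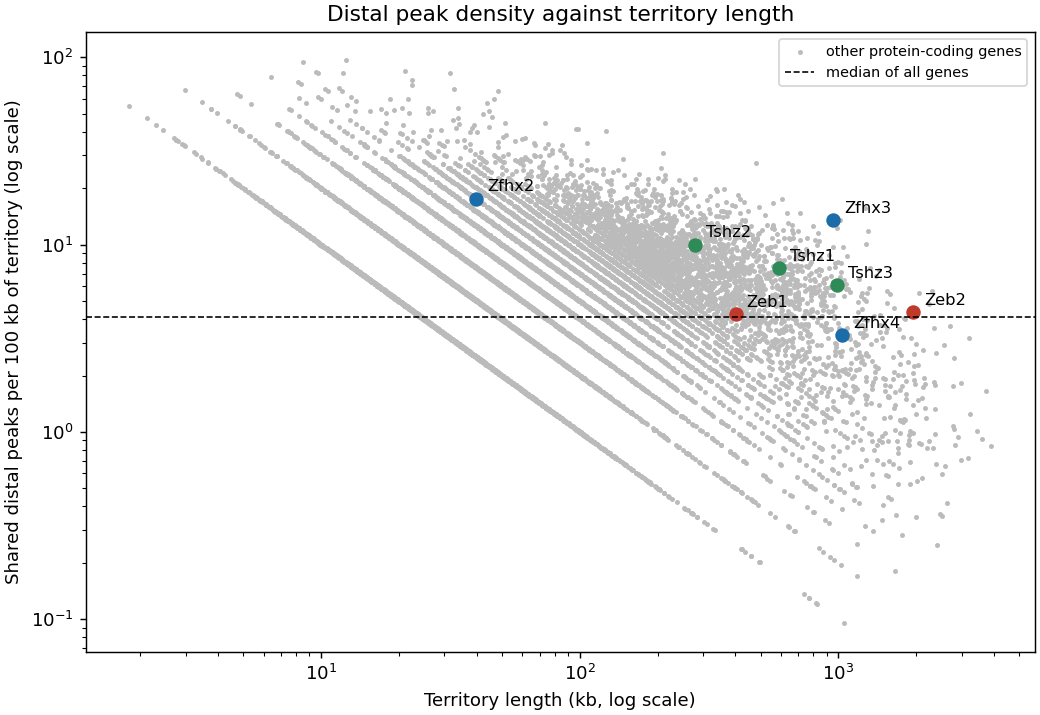
Shared distal peaks per 100 kb of territory (y axis, log scale) against territory length in kb (x axis, log scale). Coloured points are the 8 genes (blue Zfhx, red Zeb, green Tshz), grey points other protein-coding genes, and the dashed line the median of 4.12 over all genes; the 6414 genes with 0 shared distal peaks are not drawn. Zfhx3 lies near the upper edge of the cloud at its length and Zfhx4 lies under the dashed line.

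By territory, the order of the members by shared density ran from Zfhx2 to Zfhx4. Zfhx2 had 17.6 per 100 kb, from only 7 peaks in a territory of 39.7 kb. Zfhx3 had 13.5 from 129 peaks in 952.8 kb, followed by Tshz2 with 9.99 from 28 peaks in 280.2 kb. Tshz1 had 7.47 (44 peaks, 588.7 kb) and Tshz3 had 6.09 (60 peaks, 985.3 kb). The bottom of the order was close together, with Zeb2 at 4.37 (85 peaks, 1943.2 kb), Zeb1 at 4.24 (17 peaks, 400.6 kb) and Zfhx4 at 3.29 (34 peaks, 1034.1 kb). Both ends of this order depended on the definitions. With distal set at more than 5 kb, Zfhx2 had 7.56, below Zfhx3 (12.7) and Tshz2 (9.64). With the gene body and 100 kb on each side in place of the territory, Zfhx4 had 7.3 and Zeb2 had 8.69, and Zeb1 was lowest at 3.91.

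Neighbours in that order were not always separated beyond the replicates. Zfhx2 had 17.6 in replicate 1 and 27.7 in replicate 2, and Zfhx3 had 18.4 and 22.4, so these 2 genes overlapped. Tshz2, with 14.6 and 12.1, stood apart from Tshz1, with 9.0 and 11.4, by less than 1 peak per 100 kb at the nearest values. The Tshz1 values overlapped those of Tshz3, 8.12 and 10. Zeb2 had 6.23 and 6.12, both inside the range of Zeb1, 5.74 and 6.49. Zfhx4 had 3.96 and 4.84 and, counted by territory, lay below the other 7 genes in both replicates.

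**Figure D2:**
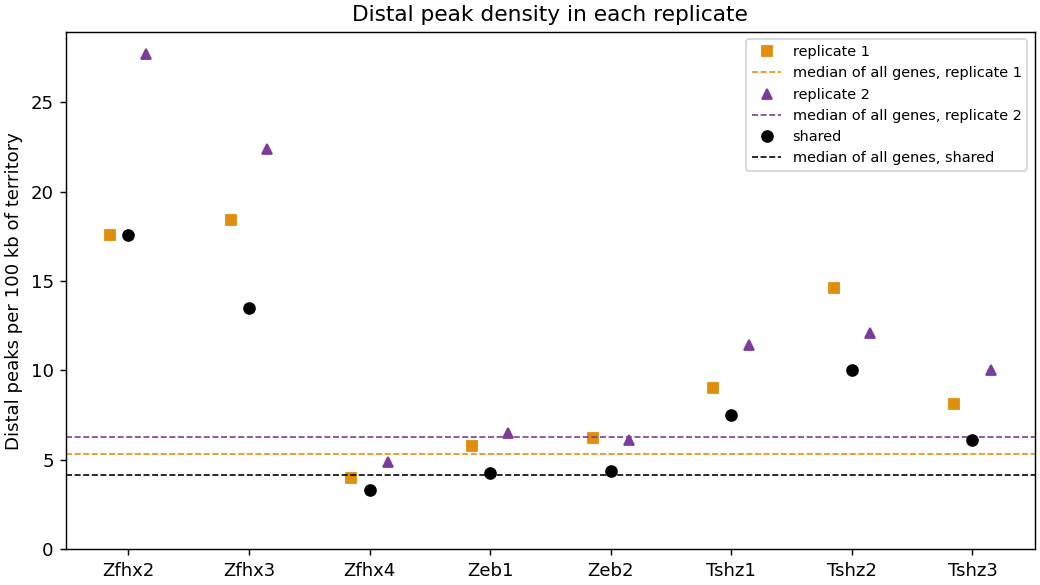
Distal peaks per 100 kb of territory (y axis) for each gene (x axis) in replicate 1 (squares), in replicate 2 (triangles) and shared by both (circles). Dashed lines are the medians of all genes, 5.29, 6.26 and 4.12; Zfhx4 lies below its line in all 3 counts, and Zeb2 lies below it in replicate 2, at 6.12.

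Against genes of similar reach, Zfhx3 stood highest. Only 7 of the 987 genes with territories of at least 500 kb had a higher density, which makes it rank 8. Tshz1 ranked 99, Tshz3 170, Zeb2 317 and Zfhx4 439 among the same 987. Zeb2 thus had many peaks (rank 29 of all genes by number) in a very long territory. The territories of Zfhx2, Zeb1 and Tshz2 are shorter than 500 kb and have no rank in that set.

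The counts of distal peaks inside and outside the gene body differed from gene to gene, also within a family. So did the length of territory that lies inside the gene. Of the 404 shared distal peaks, 197 lay inside the body of their gene and 207 outside it. At Zfhx3 109 lay inside the gene, which is 1019.0 kb long, and 20 outside. This gene runs past its territory, so another 33 shared peaks in its body enter neither count. The same holds for 24 shared body peaks at Tshz2, 3 at Zeb2 and 1 at Zfhx4. Tshz2 had 26 inside and 2 outside, and Zfhx2 had 6 and 1. Tshz3, a gene needed for smooth muscle of the ureter, had 8 inside and 52 outside. Tshz1, a gene of olfactory bulb neurons and the palate, had 10 and 34, and Zeb2 had 14 and 71. Zfhx4 had 18 and 16, and Zeb1 had 6 and 11. Territory inside the gene was 775.7 of 952.8 kb at Zfhx3, with 84.5% of its distal peaks. At Tshz2 it was 257.5 of 280.2 kb, with 92.9%. By contrast it was 94.9 of 1943.2 kb at Zeb2, with 16.5%, and 75.4 of 985.3 kb at Tshz3, with 13.3%. The counts are therefore read against these lengths.

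**Figure D3:**
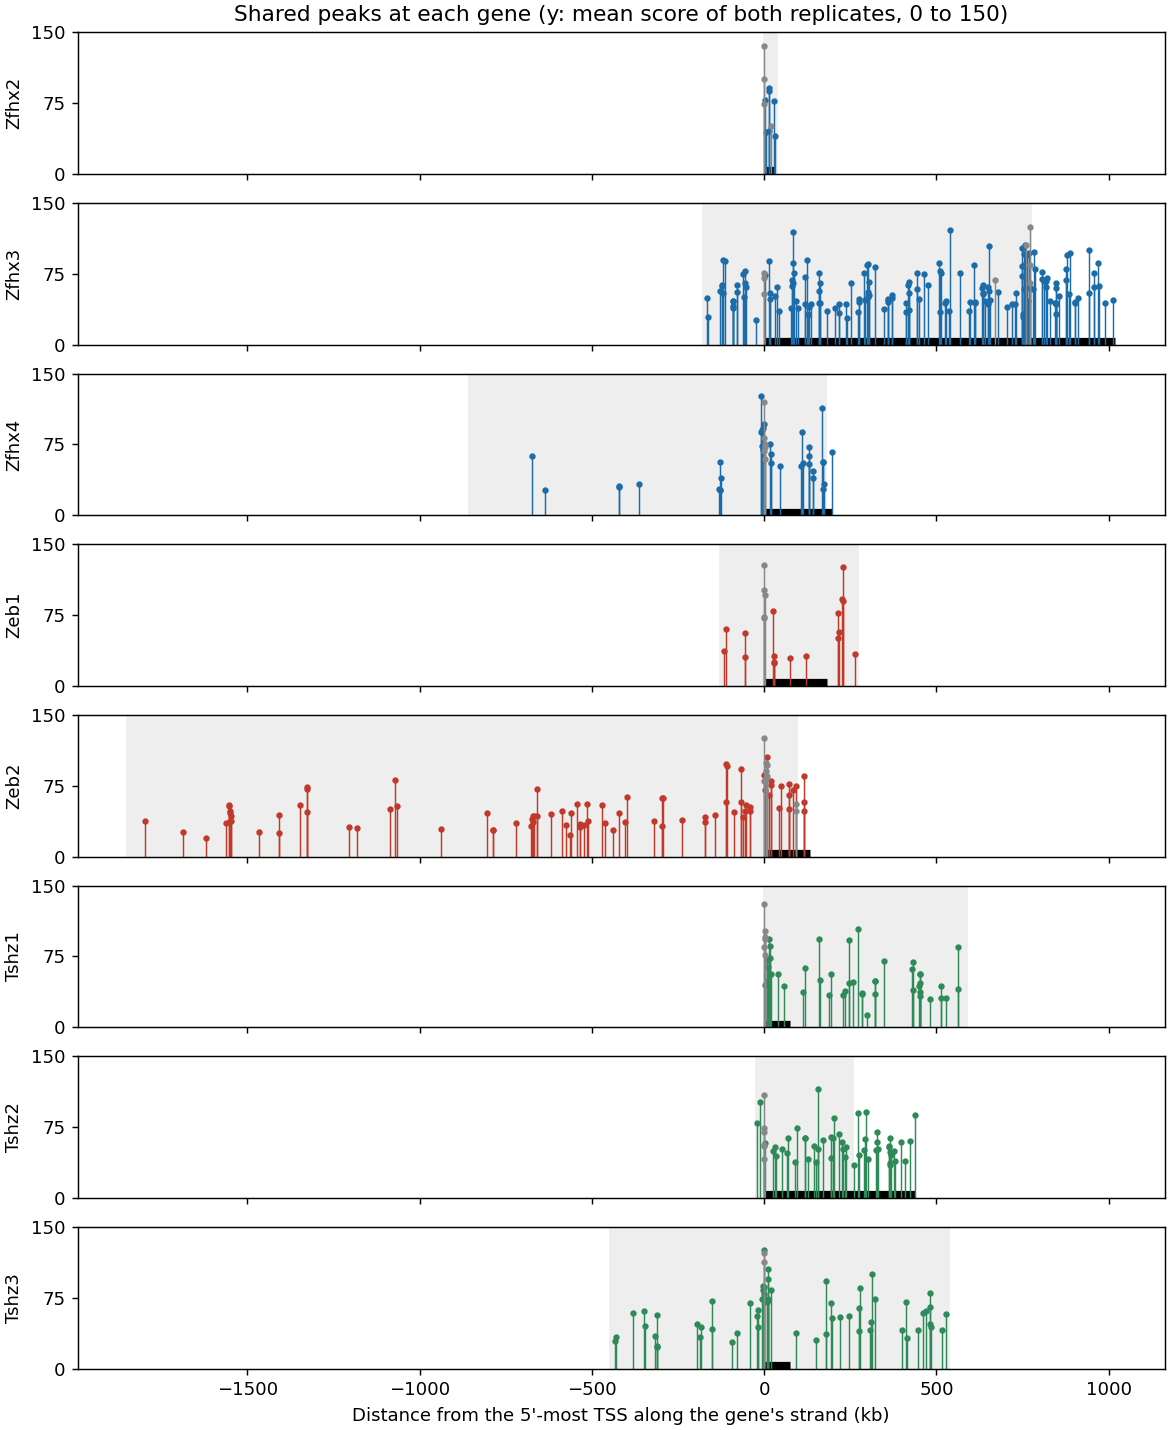
Shared peaks of each gene by distance from its 5'-most TSS in kb along the gene's strand (x axis) and mean score of both replicates (y axis, 0 to 150). Grey shading is the territory, the black bar the gene, coloured stems distal peaks and grey stems peaks within 1 kb of a TSS; the peaks of Zfhx3 fill its gene, while the distal peaks of Zeb2 lie mostly upstream and those of Tshz1 downstream, where nearly all of its territory is.

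Inside Zfhx3, peaks were spread over introns 1 to 11 of 15. The body held 149 shared peaks (198 in replicate 1 and 250 in replicate 2), of which 147 were in introns of the principal transcript. Introns 1 to 4, each of 127.0 to 192.3 kb, held 31, 25, 20 and 17. The highest densities were in intron 6, with 10 peaks in 29.2 kb (34.3 per 100 kb), and in intron 7, with 25 in 88 kb (28.4). Windows of 50 kb were sought only in the territory, which ends inside the gene, 775.7 kb downstream of the TSS. The densest of them held 21 shared peaks, 729.5 to 772.7 kb from the TSS. It reached the internal start site with the score of 122 and 127. Of these, 17 were distal, and over all 21 the scores spanned 22 to 122 in replicate 1, and 31 to 127 in replicate 2. Other strong distal sites were at 85.2 kb in intron 1 (116 in replicate 1, 122 in replicate 2) and at 756.9 kb in intron 6 (101 and 109). The farthest upstream was at -165.5 kb (38 and 60) and the farthest downstream in the territory at 770.8 kb (58 and 62). The longest stretch of territory without a shared peak was only 40.1 kb.

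Zfhx4, a close relative of Zfhx3, was arranged otherwise. Its 34 distal peaks included 16 upstream and 18 downstream of the TSS, in 855.2 kb and 178.9 kb of territory, which gives 1.87 and 10.1 per 100 kb. The densest 50 kb held 16 shared peaks and included the TSS. A stretch of 231.9 kb upstream, from -363.2 to -131.3 kb, had none. A strong distal site in intron 5, at 169.5 kb, scored 107 in replicate 1 and 120 in replicate 2, and one in intron 1, at 1.22 kb, scored 86 and 108. The farthest sites, at -672.2 and 174.3 kb, scored 59 and 66, and 30 and 36. Zfhx2, by far the shortest member, had 6 of its 9 body peaks in intron 1. Its distal sites at 13.6 and 2.89 kb scored 84 and 92, and 70 and 86, and the farthest, at 32.2 kb, scored 35 and 46. Its territory ends 1.23 kb upstream because the TSS of Thtpa lies 2.46 kb away.

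Zeb2 had the longest territory of the 8, and most of it was upstream. On that side of its TSS, toward Acvr2a at 3696.7 kb, lay 71 of its 85 distal peaks over 1848.4 kb, or 3.84 per 100 kb. The downstream 94.9 kb, toward Gtdc1 at 189.7 kb, held 14 peaks, or 14.8 per 100 kb. The farthest upstream peak, at -1796.3 kb, scored 38 in replicate 1 and 37 in replicate 2. The farthest downstream in its territory, at 92.6 kb, scored 77 and 72. A pair of stronger upstream sites lay at 108.2 kb (95 and 97) and 110.0 kb (90 and 106). In the gene, 14 shared peaks were in intron 3, which is 86.9 kb long, and the first 2 introns held 5 and 2. The hotspot region common to both replicates at 7.45 kb, 1485 bp wide, was the widest of the territory, overlapped the third group of start sites and held 3 shared peaks.

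Zeb1 had a density close to that of Zeb2 from far fewer peaks. None of its 17 distal peaks lay within 10 kb of the TSS, 7 lay between 10 and 100 kb and 10 beyond. Its strongest distal sites were past the 3' end of the gene: 3 peaks within 1.39 kb, centred 227.3, 228.0 and 228.6 kb from the TSS. The middle one scored 122 in replicate 1 and 129 in replicate 2 and had 70% GC, and those beside it scored 93 and 92, and 88 and 92. They lie in the territory of Zeb1 by distance alone. The farthest sites, at -117.5 and 264.8 kb, scored 36 and 39, and 32 and 36. Between 120.3 and 214.7 kb there was no shared peak, a gap of 94.4 kb. At the promoter, by contrast, a hotspot region of 2445 bp common to both replicates was the widest of any member and held 5 shared peaks.

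Among the TSHZ genes, Tshz1 has a territory almost wholly on 1 side of its TSS. It reaches 0.178 kb upstream and 588.5 kb downstream. By the definition of distal no such peak could lie upstream, so all 44 distal peaks were downstream. They were clustered, with 6 shared peaks between 450.7 and 453.6 kb, and the strongest was at 271.9 kb (96 in replicate 1, 112 in replicate 2). Next came sites at 14.2 kb (93 and 94) and 159.2 kb (86 and 100), and the farthest, at 563.6 kb, scored 84 and 87. The Tshz3 territory reaches 447.6 kb upstream and 537.8 kb downstream and held 25 distal peaks upstream (5.59 per 100 kb) and 35 downstream (6.51). Of its 60, 8 lay within 10 kb of the TSS and 38 between 100 and 500 kb, and sites at 11.3 and 313.5 kb scored 105 and 106, and 97 and 103. Its farthest sites, at -433.2 and 528.5 kb, scored 28 and 31, and 60 and 56. At Tshz2 the gene is 438.8 kb long and runs past the midpoint to Zfp217, so 24 of its 54 shared body peaks lie outside its territory and enter only the count of body peaks. Its best upstream site, at 11.7 kb, scored 102 in both replicates, and one in intron 1, at 201.8 kb, scored 70 and 100. The farthest in the territory, at -21.3 and 237.7 kb, scored 71 and 88, and 59 and 49.

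Distal sites of the members had scores like those of distal sites elsewhere. Over the 404 peaks the median score was 49 in replicate 1 and 56 in replicate 2, against 46 and 55 for all 125450 shared distal peaks. Zfhx2 had the highest medians, 70 and 84 over 7 peaks, and Zeb1 and Zeb2 the lowest in replicate 1, 44 each. In the best-scoring 10% of both lists were 11 of the 404 (2.72%), against 3.87% of all shared distal peaks. The 46 shared peaks within 1 kb of a TSS in the same territories had higher medians, 74.5 and 90. Replicate 2 gave the higher score at 330 of the 404 distal peaks, with a median difference of 8 and a range from -12 to 36. The median GC content was 51.3% in both the members' distal peaks and all of them, and 2.23% of the members' peaks were mostly repeat sequence, against 4.3%.

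**Figure D4:**
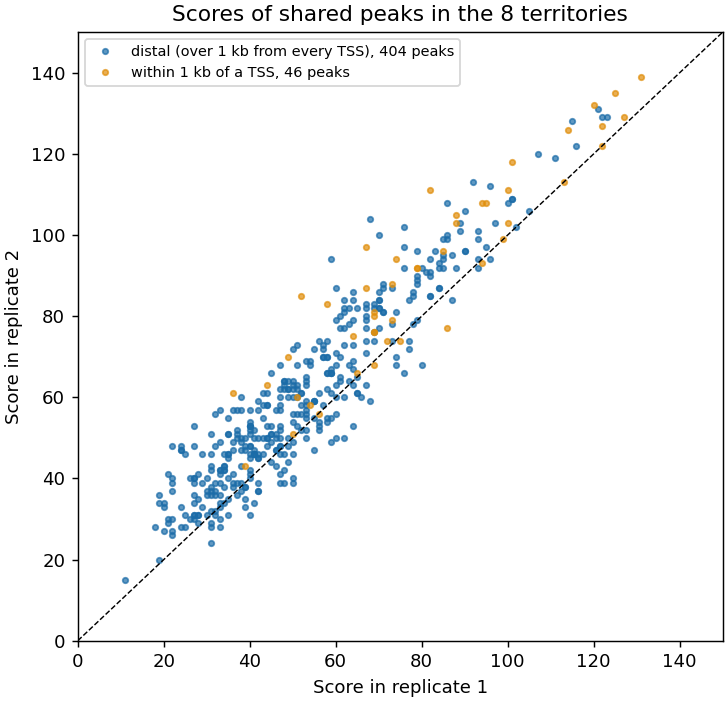
Score in replicate 1 (x axis) against score in replicate 2 (y axis) for the shared peaks in the 8 territories, 404 distal (blue) and 46 within 1 kb of a TSS (orange). The dashed line marks equal scores; 330 of the distal peaks lie above it.

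The members' peaks were shared slightly less often than the average peak. Of 594 peaks of replicate 1 in the 8 territories, 450 (75.8%) were shared, against 79.5% of its whole list. For replicate 2 it was 451 of 675 (66.8%), against 70.3%. The 2 sets differ in make-up, and sharing was not compared for distal peaks alone. Distal peaks were 404 of the 450 in replicate 1, and 125450 of 162667 shared peaks in its whole list. By gene, the lowest share in replicate 1 was 71.0% at Zeb1, and all 11 peaks of Zfhx2 were shared. In replicate 2 the shares lay between 61.8% at Zfhx3 and 82.5% at Tshz2. Hotspots, the broader enriched regions, covered 5.51% of the Zfhx3 territory in replicate 1 and 7.4% in replicate 2, and 1.15% and 1.63% of that of Zfhx4. At the ceiling of the deposited −log10 value were 17.8% to 55.6% of hotspots per gene in replicate 1 and 20.8% to 33.3% in replicate 2, where the whole lists had 33.3% and 34.1%. Only Zfhx2, with 5 of 9, exceeded the share of the whole list, and only in replicate 1.

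The 404 distal peaks were searched on both strands for 15 short motifs, each set beside its share in all 125450 shared distal peaks. A match describes letters in a window of 150 bp and is no proof of binding. The E-box of ZEB factors, CAGGTG, was in 33 of the 404 (8.17%), against 10.5% of all. By gene it was in 9 of 129 at Zfhx3, 9 of 85 at Zeb2, 6 of 60 at Tshz3, 4 of 44 at Tshz1, 3 of 28 at Tshz2, 1 of 7 at Zfhx2 and 1 of 34 at Zfhx4, and in 0 of 17 at Zeb1. Other E-boxes were near the background. CAGCTG was in 19.3% against 18.5%, while for CAGATG it was 19.6% against 18.7%.

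Among the other motifs, those for the insulator protein CTCF and for Meis and Tgif factors differed most from all distal peaks. The CTCF core was in 7 of 404 (1.73%), against 9.56% of all. It was in 0 of 85 peaks at Zeb2, 0 of 44 at Tshz1, 0 of 34 at Zfhx4, 0 of 28 at Tshz2 and 0 of 17 at Zeb1, while Zfhx3 had 4, Zfhx2 had 2 and Tshz3 had 1. The motif TGACAG of Meis and Tgif factors, homeodomain proteins of the TALE class, was in 89 of 404 (22%), against 14.3%. All 8 genes lay above 14.3%, from 17.6% at Zfhx4 and Zeb1 to 32.1% at Tshz2. Several of these shares rest on few peaks, with 2 of 7 at Zfhx2, 3 of 17 at Zeb1, 6 of 34 at Zfhx4 and 9 of 28 at Tshz2. They do not show an excess at each gene. The motif TTGGCA of Nfi factors stood at 11.9% against 8.46%, and the Pou motif ATTTGCAT at 2.72% (11 peaks) against 1.02%. The homeodomain core TAATTA stood at 4.46% (18 peaks) against 3.35%, but at 1.83% against 2.85% in the better-scoring 50% of peaks. The remaining motifs differed by less than 2 percentage points. The Sox motif ACAATG was found in 8.17% of the members' peaks, against 8.24% of all. For the Tcf and Lef motif CTTTGA the shares were 11.9% and 11.6%, and for the Gata motif AGATAA they were 5.2% and 5.31%. For the Tead motif GGAATG they were 11.4% and 11%, and for the nuclear receptor motif AGGTCA they were 14.4% and 12.8%. For the Sp and Klf motif GGGCGG they were 8.91% and 8.28%, and for the Ets motif CCGGAAG they were 1.49% and 1.43%.

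**Figure D5:**
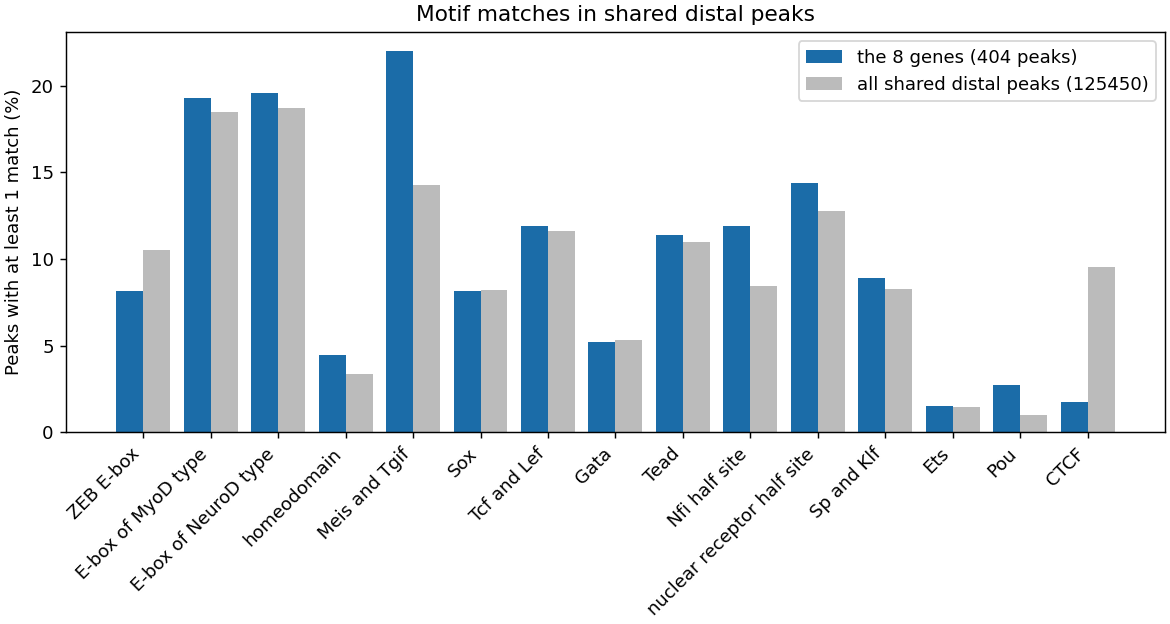
Share of shared distal peaks with at least 1 match (y axis, %) for 15 motifs named by factor (x axis), in the 404 peaks of the 8 genes (blue) and in all 125450 shared distal peaks (grey). The CTCF bars stand at 1.73% and 9.56%, and those for Meis and Tgif at 22% and 14.3%.

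MicroRNAs of the miR-200 family repress Zeb1 and Zeb2 and come from 2 clusters, Mir200b, Mir200a and Mir429 on chromosome 4 and Mir200c and Mir141 on chromosome 6. Their mature 3p strands (RefSeq, GRCm38.p6) are shown to let their seeds, bases 2 to 8, be compared; the seeds are in capitals.
mmu-miR-200b-3p: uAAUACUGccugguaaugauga
mmu-miR-200c-3p: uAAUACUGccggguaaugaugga
mmu-miR-429-3p: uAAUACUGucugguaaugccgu
mmu-miR-200a-3p: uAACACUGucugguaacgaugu
mmu-miR-141-3p: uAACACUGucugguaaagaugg
The first 3 share the seed AAUACUG and the other 2 share AACACUG, so the groups cross the clusters. In the longest annotated 3' UTR of Zeb1 (2404 bp) the complement of the first seed occurred 5 times and that of the second 4 times, or 2.08 and 1.66 per kb. Zeb2 (4944 bp) also had 5 and 4, or 1.01 and 0.809 per kb. Over the 3' UTRs of 21477 protein-coding genes the rates were 0.108 and 0.149 per kb, and each of the other 6 members had 0 or 1 match per seed.

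Shared peaks lay within 5 kb of 5 of the 6 microRNA hairpins examined, as of 62.2% of 1005 annotated hairpins, and none of the nearest peaks touched its hairpin. Within that distance, Mir200c had 2 shared peaks, Mir141 had 3, and Mir200a and Mir200b had 2 each. These hairpins lie close together, so neighbours count some of the same peaks. The best reached 78 in replicate 1 and 101 in replicate 2 at Mir141 and Mir200c, and 54 and 53 at Mir200a. The nearest shared peak was 426 bp from Mir200c, 789 bp from Mir141, 3606 bp from Mir200b and 4371 bp from Mir200a. Mir429 had 0 within 5 kb, with the nearest 5369 bp away. Mir205, another microRNA that targets ZEB genes, had 2, of which the best scored 69 and 77. The loci on chromosome 4 lie inside Ttll10, whose TSS is 3.73 kb from Mir200b, so the peaks there cannot be told apart from sites of that gene.

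Partners, opponents and targets of ZEB factors had open promoters throughout, 19 of 19, where 70.3% of all genes have one. Their median density was 7.3 shared distal peaks per 100 kb, and 15 of 19 were above 4.12. Snai1, which like ZEB factors represses Cdh1, had the most (25.9 per 100 kb), followed by Smad3 (17.6), a transducer of TGF-beta signals. Snai2, a neural crest relative of Snai1, had 1.74, and Smad4, the common partner of receptor-activated SMADs, had 2.2. The other zinc finger homeobox genes, Adnp, Adnp2, Zhx1, Zhx2, Zhx3 and Homez, had promoter peaks in 6 of 6. Their median density was 5.32, with 3 of 6 above 4.12. Adnp, a chromatin regulator, had 16.1 and Zhx2 had 9.64, while Homez had 3.15 and Zhx3 had 0 shared distal peaks in 74.7 kb, though 2.68 per 100 kb in replicate 1 and 4.02 in replicate 2.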

How the data were processed

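Each of the 2 DNase-seq libraries of embryos aged 11 days has a peak list and a hotspot list. Per the file headers and accompanying text, the authors derived both from filtered alignments of that replicate to mm10, unpooled. Aligner, caller and versions: not given in the sources used here. The deposited peaks are 150 bp wide and carry a score from 1 to 150, of unknown construction, used to rank peaks and never as a ratio. Deposited hotspots carry the −log10 of a q value, by the rules of their format, from 1.30 to a ceiling of 100. Read depth is unknown, so no counting interval is given, and a call missing from a list is not shown to be closed chromatin.

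Coordinates match GRCm38, and genes follow GENCODE M21, merged by symbol. Shared peaks are replicate 1 peaks that overlap a replicate 2 peak by at least 1 bp. Territories, distal peaks (midpoint over 1 kb from every protein-coding TSS) and promoter peaks (within 500 bp of any TSS of the gene) were computed in Python 3.11.15 with numpy 2.4.6 and pandas 2.3.3, densities per 100 kb of assembled bases. Start sites up to 500 bp from the next form a group, and nearby groups can count the same peak. The counting functions were tested on simulated intervals. Replicates of 1 group allow no test, so values are descriptions. The labels do not say how far both samples are independent beyond separate biosample entries.

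Named are all members, antisense genes with their symbol, the 2 highest and 2 lowest genes of each list by density, bordering genes, the most alike gene of each member, and for each member the 3 best distal peaks, the best promoter peak and the farthest peaks. The rule for the members uses no measured value, but the families, lists and motifs were picked with earlier results of these data known. Sequences from chromosome 18 (Zeb1 and Tshz1) were not used here, and 1 distal site of Zfhx4 that the rule selects is not reported here.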

Additional observations from a re-analysis of the deposited data

How the results depend on the processing

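All 8 members kept a shared promoter peak under each of the 6 alternatives tried for promoters. Between 6 and 8 members stood above the median density of all genes, which was recomputed for each of the 6 alternatives tried for density. Zeb1 fell under it with an overlap of 75 bp (3.74 against 3.92) and with gene bodies extended by 100 kb (3.91 against 5.48), and Zeb2 with replicate 2 alone (6.12 against 6.26). Zfhx4, below it in the main count, passed it in the better-scoring 50% (2.03 against 1.19), with distal beyond 5 kb (2.71 against 2.03) and with extended gene bodies (7.3 against 5.48). Counting 1 list alone, without the other replicate, gave 541 to 619 distal peaks (404 shared), 384 to 448 body peaks (294 shared), a median density of 8.56 to 10.7 (6.78 shared) and CAGGTG in 8.56% to 9.8% of distal peaks (8.17% shared). The better-scoring 50% of each list gave 218 distal peaks, a median density of 3.61, against 1.19 for all genes, and CAGGTG in 10.1%, against 10.9%. CTCF matches stayed below and matches of Meis and Tgif, Nfi and Pou factors above the share of all distal peaks under the 3 alternatives tried for motifs. With replicate 2 alone the excess was smaller, at 9.21% against 8.55% for Nfi and 1.78% against 0.942% for Pou. For Meis and Tgif it was then 18.4% against 14.2%. Densities of single members moved by more than the SD of both replicates in 29 of 48 cases. No paired analysis was possible because there is only 1 group. Lists without read counts limit what can be said of weak sites, and the better-scoring 50% shows how far counts depend on the lowest calls.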

Other observations

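Several members have annotated non-coding neighbours that hold some of their peaks. The lincRNA Gm26883 overlaps 28 shared peaks of Tshz2, the antisense gene 2700069I18Rik overlaps 11 of Zfhx4, Gm20687 overlaps 11 of Zfhx2, the lincRNA AC116489.2 overlaps 6 of Tshz1 and the lincRNA Lncbate1 overlaps 6 of Zfhx3. Few distal peaks lay at a non-coding start: 11 of the 404 (2.72%) were within 500 bp of an annotated non-coding TSS, against 3.22% of all shared distal peaks. Of these, 4 were among the 34 of Zfhx4 and 3 among the 60 of Tshz3, and Zeb1, Zfhx2 and Tshz2 had 0.

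For each member the most alike of all other genes was sought by 4 standardised measures on a log2 scale: territory length, gene length, and shared distal peaks inside and outside the gene. Zfhx2 was nearest to Cotl1, Zfhx4 to Cobl, Zeb1 to Ptprz1, Tshz1 to Prickle1, Tshz2 to Dnm3 and Tshz3 to Pik3r1. Zeb2, with 14 distal peaks inside and 71 outside the gene, was nearest to Cdh11, with 12 and 72. Zfhx3, with 109 inside and 20 outside, had the most distant match, at 0.717 SD units, in Sox5, a gene of 953.6 kb with 83 and 10. The likeness uses counts and lengths only.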
